A study of Mus musculus with 4 samples.

Results

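The genes for 10 G protein-coupled receptors, Gpr65, Gpr183, Gpr18, Gpr15, Gpr83, Gpr132, Gpr171, Gpr174, Ptger2 and Ptger4, were followed in RNA sequencing of mouse T helper 17 (Th17) cells. They were chosen by symbol, as receptors for lipid mediators, prostaglandins and related signals, and all 10 were found among the 50600 genes of the deposited tables. The material was 4 libraries (replicates 1 to 4) of Th17 primary cells of strain C57BL/6NJ, which form 1 group, so no condition was compared with another. According to the labels, the cells come with a differentiation protocol for CD4+ T cells, sex was not collected and age is unknown, and the headers of the tables name 72 hr. The labels number the libraries as biological replicates but give all 4 biosamples the same donor identifier. Separate animals or cultures are not stated, so p-values measure only the spread between these libraries, which may be technical.

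Receptors of this class span the membrane and pass a signal to G proteins, which raise or lower the second messenger cyclic AMP (cAMP) or act on the cytoskeleton. Prostaglandin E2 (PGE2) is made from arachidonic acid by cyclooxygenases and PGE synthases, and its receptors EP2 (Ptger2) and EP4 (Ptger4) raise cAMP. In helper T cells PGE2 is known to act on IL-17 and interferon production. Among the others, Gpr183 guides lymphocytes along gradients of oxysterols, which are oxidised forms of cholesterol, and Gpr174 binds lysophosphatidylserine. Gpr65 senses extracellular protons, Gpr132 has been linked to protons, lysophospholipids and oxidised fatty acids, and Gpr18 has been linked to arachidonic acid derivatives. Gpr15 is a receptor for homing to the large intestine with a peptide ligand, and Gpr83 and Gpr171 have been reported to bind peptides cut from the proSAAS protein. The 10 thus include lipid, proton and peptide receptors.

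Total counts were 33123029 to 37746767 per library, and 17337 genes with at least 10 summed counts were tested. The labelled cell type was checked on 12 Th17 and T cell markers. All 12 were called above 1 TPM (transcript level corrected for gene length and scaled to the same total in every library) by the level test described with the receptors below. As 70.6% of all tested genes were too, such a call alone does not identify the cell type. Replicate 2 stood apart: a chi-square test of counts gave 44.6 to 49.4 per degree of freedom for pairs with replicate 2 and 4.44 to 6.61 for the other pairs. Its 12 Th17 and T cell markers summed to 2544 TPM, against 6633 to 7334 TPM in replicates 1, 3 and 4. The most abundant of the 12 were Il17f, with 578 TPM in replicate 2 and 2619 to 2908 TPM in the others, Il17a, with 505 and 2155 to 2543 TPM, and Cd4, with 486 and 487 to 516 TPM. Most of the difference in the sum lay in Il17f and Il17a. The log2 change of replicate 2 was −2.14 for Ccr6, −0.63 for Rora, −0.62 for Il23r and −0.17 for Cd28. For Il22 the change was −0.89 ± 0.22 (SE), with no call in the test of single libraries given below. The change was 0.16 for Cd3g, and −0.01, 0.07, 0.01 and 0.04 for Cd3d, Cd3e, Cd4 and Il1r1. The markers thus did not fall together. Most markers of other cells were low. The 6 B cell markers summed to 1.88 to 2.40 TPM, the natural killer marker Ncr1 and the myeloid marker Lyz2 had 0 counts in every library, and Foxp3 had 2 to 4 counts. Of the 5 dendritic cell markers Zbtb46 was called above 1 TPM, at 1.49 ± 0.234 TPM, and Flt3 had no call at 3.64 ± 5.26 TPM. This list summed to 13.5 TPM in replicate 2, against 2.47 to 2.88 TPM in replicates 1, 3 and 4, with 11.5 TPM of Flt3 in replicate 2 and 0.848 to 1.29 TPM in the others. None of the 4 stromal and epithelial markers was called above 1 TPM, Epcam having no call at 1.31 ± 0.388 TPM. Of the 6 myeloid markers Adgre1 and Cd14 were called above 1 TPM, and of the CD8 T cell pair Cd8b1 at 42.0 ± 7.49 TPM while Cd8a had at most 3 counts. In such bulk RNA, fewer cells of a type and less RNA per cell cannot be told apart.

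The promoters of 3 receptors are shown because these genes carry the main contrasts below: Gpr132 differed most in replicate 2, and Ptger2 and Ptger4 had about the same level. RefSeq windows (build GRCm38.p6, 250 bases before to 50 after the annotated start) were matched for 9 of the 10 genes, Gpr171 having none in the table. They are written 5′ to 3′ on the gene's strand, for Gpr132 chr12:112860867-112861166 (minus strand), for Ptger2 chr14:44987861-44988160 (plus strand) and for Ptger4 chr15:5244138-5244437 (minus strand). The RefSeq start differed from that of the counted gene for Ptger2, Gpr15, Gpr18 and Gpr174. The Ptger2, Gpr15 and Gpr18 windows lay wholly before the counted gene, and the Gpr174 window lay inside it. Capitals mark a match to a searched motif.
Gpr132: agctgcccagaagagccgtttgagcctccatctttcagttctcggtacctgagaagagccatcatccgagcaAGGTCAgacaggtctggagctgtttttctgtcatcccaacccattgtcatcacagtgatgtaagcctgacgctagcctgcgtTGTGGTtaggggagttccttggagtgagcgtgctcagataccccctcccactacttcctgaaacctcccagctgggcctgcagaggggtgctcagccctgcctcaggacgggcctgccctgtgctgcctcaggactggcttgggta
Ptger2: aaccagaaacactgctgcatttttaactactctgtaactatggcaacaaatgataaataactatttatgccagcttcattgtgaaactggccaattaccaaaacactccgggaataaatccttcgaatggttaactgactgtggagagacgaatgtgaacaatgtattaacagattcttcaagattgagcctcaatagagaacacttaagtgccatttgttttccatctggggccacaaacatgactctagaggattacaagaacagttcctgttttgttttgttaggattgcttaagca
Ptger4: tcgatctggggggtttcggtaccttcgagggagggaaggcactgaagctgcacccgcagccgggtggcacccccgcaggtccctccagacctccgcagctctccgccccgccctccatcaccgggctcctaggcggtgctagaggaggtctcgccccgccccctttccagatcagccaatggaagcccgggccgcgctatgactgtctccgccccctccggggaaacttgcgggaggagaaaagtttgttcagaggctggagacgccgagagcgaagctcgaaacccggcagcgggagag

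Motifs were searched on both strands: the cAMP response element TGACGTCA, the AP-1 site TGANTCA, the STAT site TTCNNNGAA, the RUNX core TGTGGT and the ROR site AGGTCA. In the Gpr132 window the capitals are 1 ROR site, which begins at base −178 from the start of the gene, and 1 RUNX core at base −96. The Ptger2 and Ptger4 windows held none of the 5 motifs and differed in composition, with a GC content of 37.7% in Ptger2 and 67.0% in Ptger4. Over the 9 windows, no gene had a cAMP response element or a STAT site, Gpr15 had an AP-1 site, Gpr132 the ROR site, and Gpr132, Gpr15 and Gpr18 had a RUNX core. Of all 32851 windows in the table, 1.79% held the cAMP response element, 7.81% the AP-1 site, 8.30% the STAT site, 16.8% the RUNX core and 16.3% the ROR site. A match describes these letters only, and no 2 matches overlapped in these 9 windows.

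Of the 10 receptors, 9 lay above 1 TPM and Gpr15 had no call (test of each gene's level by edgeR's quasi-likelihood fit, with a threshold of 0.05 on the Benjamini-Hochberg adjusted p), where 70.6% of all tested genes lay above and 16.4% below 1 TPM. None of the 10 lay below it. The levels fell into 4 tiers by size: Gpr171 and Gpr65 at 387 and 333 TPM, 6 genes between 49.5 and 114 TPM, Gpr83 at 3.51 TPM and Gpr15 near 1 TPM.

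**Figure D1:**
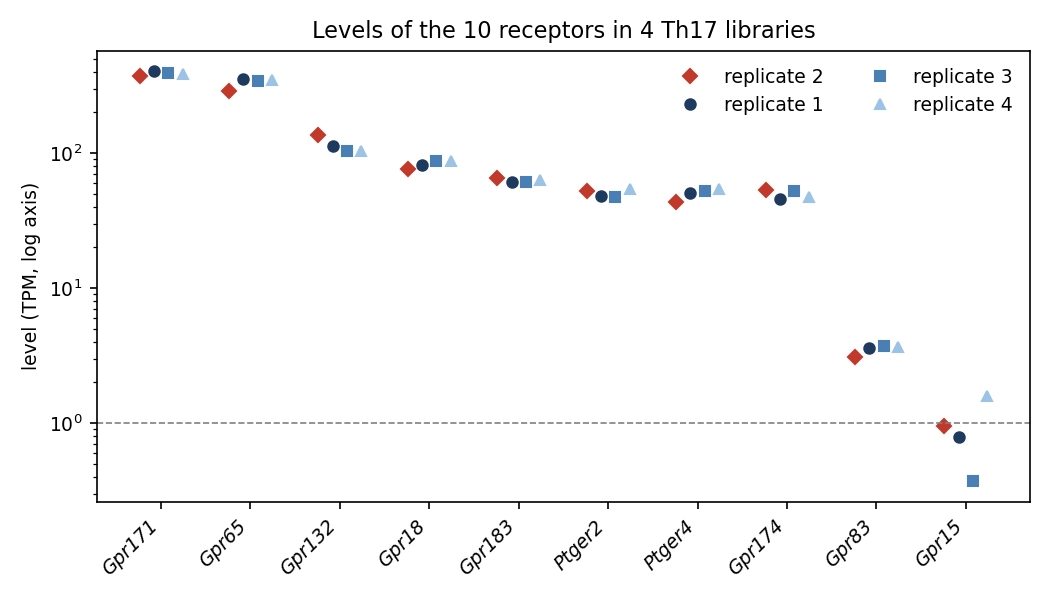
Level of each receptor gene in TPM (log axis) in the 4 libraries, 1 point per library, with genes ordered by mean and a dashed line at 1 TPM. Gpr171 and Gpr65 sit highest, between 289 and 403 TPM, and Gpr15 scatters around the line from 0.369 to 1.59 TPM.

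The peptide receptor Gpr171 was the most abundant, with 369 TPM in replicate 2 and 403, 391 and 385 TPM in replicates 1, 3 and 4. Its mean of 387 ± 14.3 TPM (SD, n = 4) placed it 379th among 21764 protein-coding genes. The 4 libraries lay close together, and the log2 change of replicate 2 was −0.03 ± 0.05 (SE) with no call (edgeR adjusted p = 0.722). Gpr171 (ENSMUSG00000050075.8) lies on the minus strand of chromosome 3 from base 59096448 to 59101821 (mm10), inside the span of Med12l on the other strand, with which it shares no exon base. Med12l stood at 6.78 ± 0.560 TPM.

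The proton sensor Gpr65 (ENSMUSG00000021886.7, chromosome 12, bases 98268635 to 98276644, plus strand) came next. It had 289 TPM in replicate 2 and 356, 342 and 345 TPM in replicates 1, 3 and 4, a mean of 333 ± 30.0 TPM (SD, n = 4). Replicate 2 was below the range of the other 3 libraries. Gpr132 (ENSMUSG00000021298.7, chromosome 12, bases 112850876 to 112860916, minus strand) went the other way, with 136 TPM in replicate 2 and 113, 104 and 104 TPM in replicates 1, 3 and 4 (mean 114 ± 15.1 TPM, SD, n = 4). Replicate 2 lay above the range of the others. Gpr4, another proton-sensing receptor gene, lay below 1 TPM at 0.190 ± 0.116 TPM (SD, n = 4).

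Gpr18 and the oxysterol receptor Gpr183 are neighbours on chromosome 14. Gpr18 (ENSMUSG00000050350.7) spans bases 121911435 to 121915774 and Gpr183 (ENSMUSG00000051212.7) bases 121952331 to 121965193, 36556 bases apart on the minus strand. Both lie within the span of Ubac2, a gene on the plus strand, and share no exon base with it. Gpr18 had 76.4 TPM in replicate 2 and 82.1, 87.8 and 86.5 TPM in replicates 1, 3 and 4 (mean 83.2 ± 5.17 TPM, SD, n = 4). Gpr183 had 65.5 TPM in replicate 2 and 60.7, 61.2 and 62.6 TPM in replicates 1, 3 and 4 (mean 62.5 ± 2.15 TPM, SD, n = 4). Replicate 2 was the lowest library for Gpr18 and the highest for Gpr183, and the ratio of their TPM was 1.17 in replicate 2 and 1.35, 1.44 and 1.38 in replicates 1, 3 and 4. Neither difference was called (edgeR adjusted p = 0.481 for Gpr18 and 0.132 for Gpr183).

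The EP2 and EP4 receptor genes were nearly equal in TPM. Ptger2 (ENSMUSG00000037759.5, chromosome 14, bases 44988195 to 45003820, plus strand) had 52.4 TPM in replicate 2 and 47.7, 47.5 and 54.2 TPM in replicates 1, 3 and 4, a mean of 50.5 ± 3.39 TPM (SD, n = 4). Ptger4 (ENSMUSG00000039942.15, chromosome 15, bases 5206661 to 5244187, minus strand) had 43.6 TPM in replicate 2 and 50.1, 52.4 and 54.0 TPM in replicates 1, 3 and 4, a mean of 50 ± 4.59 TPM (SD, n = 4). Replicate 2 lay within the range of the others for Ptger2 and below it for Ptger4. Within libraries, the log2 difference of Ptger4 minus Ptger2 was −0.27 in replicate 2 and 0.07, 0.14 and −0.01 in replicates 1, 3 and 4, with a mean of −0.01 ± 0.18 (SD over 4 libraries, p = 0.875 by an exact sign-flip test, two-sided). The smallest p that 4 libraries allow is 0.125. Without length correction Ptger4 lay 0.84 above Ptger2 on the log2 scale, as its summed exons are 6648 bases long and those of Ptger2 3684 bases.

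The lysophosphatidylserine receptor Gpr174 (ENSMUSG00000073008.11, chromosome X, bases 107255878 to 107296769, plus strand) had 53.2 TPM in replicate 2 and 45.7, 51.9 and 47.1 TPM in replicates 1, 3 and 4 (mean 49.5 ± 3.6 TPM, SD, n = 4). Gpr83 (ENSMUSG00000031932.14, chromosome 9, bases 14860210 to 14870789, plus strand) had 3.07 TPM in replicate 2 and 3.61, 3.72 and 3.63 TPM in replicates 1, 3 and 4 (mean 3.51 ± 0.295 TPM, SD, n = 4). For Gpr174 replicate 2 was the highest library, and for Gpr83 the lowest. Gpr15 (ENSMUSG00000047293.6, chromosome 16, bases 58717435 to 58718724, minus strand) was scarce, with 14 counts in replicate 2 and 10, 5 and 23 counts in replicates 1, 3 and 4. Its level of 0.923 ± 0.508 TPM (SD, n = 4) had no call against 1 TPM (edgeR adjusted p = 0.784). These counts are too few to place Gpr15 on either side of 1 TPM. All 10 genes are annotated as protein-coding.

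Among neighbours in the order of mean TPM, 7 of 9 pairs differed in the same direction in 4 of 4 libraries and their ranges did not overlap. The exceptions were Ptger2 with Ptger4 and Ptger4 with Gpr174, whose ranges overlapped and whose log2 differences were 0.01 ± 0.18 and 0.01 ± 0.21 (SD, n = 4, exact p = 0.875 for each). The steps between tiers were 3.78 ± 0.20 from Gpr174 to Gpr83 and 1.96 ± 0.81 from Gpr83 to Gpr15 on the log2 scale, and 1.55 ± 0.31 from Gpr65 to Gpr132. For all 7 pairs the exact two-sided sign-flip p was 0.125 (n = 4), the smallest possible, or 0.161 adjusted over the 9 pairs. Seen against the 72 protein-coding genes with a symbol of Gpr and a number, 22 of which had a mean of at least 1 TPM, Gpr171 and Gpr65 ranked 1 and 2. Gpr132, Gpr18, Gpr183 and Gpr174 ranked 4, 5, 7 and 8, Gpr83 18 and Gpr15 23, and the 8 receptors of this name together held 75.5% of the summed mean TPM of the 72 genes. Because the receptors were chosen with earlier results of these data known, these ranks and this share are a description only.

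The next question was how far each library stood from the other 3 for these receptors. Each such test compares 1 library with 3 and not conditions, and takes the spread of a single library to be that of the rest. In replicate 2, Gpr132 and Gpr174 were higher and Gpr65 and Ptger4 lower, 4 of 10 in all, where 22.5% of all genes tested were called, 11.7% higher and 10.9% lower. Among the genes with a mean of at least 10 TPM, a limit chosen after seeing the data, 32.5% were called, and 4 of 8 receptors. The count of 4 in so small a set is not read as particular to the receptors. The changes were small: the median absolute log2 change was 0.18 in those 8 receptors and 0.13 in the genes of at least 10 TPM.

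Gpr132 changed most, at 0.41 ± 0.06 (log2 change of replicate 2 ± SE, edgeR adjusted p = 1.38e-05). Gpr65 was lower at −0.21 ± 0.05 (edgeR adjusted p = 0.00387) and Ptger4 at −0.20 ± 0.05 (adjusted p = 0.0052). Gpr174 was higher at 0.20 ± 0.06 (edgeR adjusted p = 0.0288). That call was lost with DESeq2 (0.20, adjusted p = 0.0953) and with scaling to library size only (0.18, adjusted p = 0.0519). The other 6 receptors had no call, with 0.15 ± 0.07 for Gpr183, 0.14 ± 0.08 for Ptger2, −0.10 ± 0.09 for Gpr18, −0.19 ± 0.17 for Gpr83 and 0.10 ± 0.77 for Gpr15, beside Gpr171 above. Since this library also had less of several Th17 markers and more Flt3 as given above, the changes stand beside those values, and their part in the result was not tested.

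**Figure D2:**
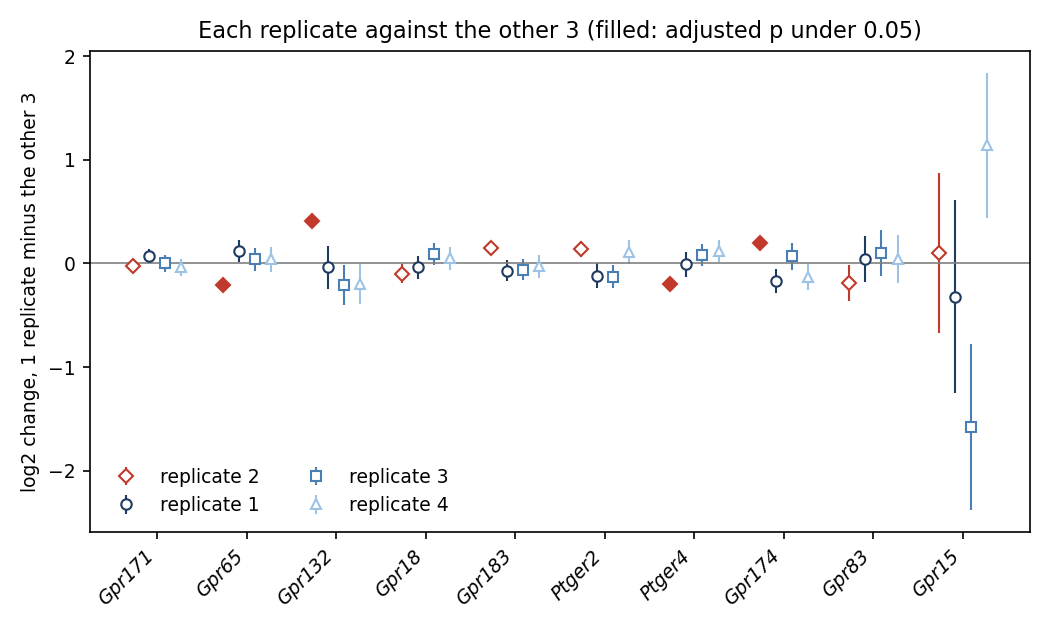
Log2 change of each replicate against the other 3 for each receptor gene, as points with SE bars, filled where the Benjamini-Hochberg adjusted p was under 0.05. Filled points occur only in replicate 2, for Gpr132, Gpr174, Gpr65 and Ptger4, and the widest bars are those of Gpr15.

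In replicates 1, 3 and 4 no receptor was called by edgeR or by DESeq2, and 0 of 10 had an unadjusted p under 0.05 in each. The background there was 0% of all genes by edgeR in each of the 3 comparisons, with 166, 257 and 128 genes at an unadjusted p under 0.05 and 2, 15 and 3 called by DESeq2. Replicate 2 is among the other 3 there, and no receptor was called without it either. Such a run sets 1 library against 2, and its share over all genes is not given, so nothing is read from it. The median absolute log2 change of the 10 receptors was 0.07 in replicate 1 and 0.08 in replicates 3 and 4, against 0.17 in replicate 2. Over all tested genes it was 0.13, 0.14 and 0.13 in replicates 1, 3 and 4, against 0.24 in replicate 2. The rise in replicate 2 is thus not particular to the receptors. Gpr15 had the largest changes, −1.58 in replicate 3 and 1.14 in replicate 4, from 5 and 23 counts and with no call.

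Gpr132 also had the largest spread between libraries of the 9 receptors with a mean of at least 1 TPM, with an SD of 0.18 on the log2(TPM + 0.1) scale, and Gpr183 and Gpr171 the smallest at 0.05 each. This order rests on replicate 2: over replicates 1, 3 and 4 the SD of Gpr132 was 5.22 TPM on a mean of 107 TPM, a smaller share of the mean than for Ptger2 (3.82 TPM on 49.8 TPM) or Gpr174 (3.22 TPM on 48.2 TPM). The genes whose levels followed Gpr132 most closely over the 4 libraries were Socs3, Midn and Mtfr1l, by the root mean square difference of centred log2 levels among 11195 protein-coding genes. That difference was 0.008 for Socs3, 0.009 for Midn and 0.011 for Mtfr1l. Socs3, for example, had 145 TPM in replicate 2 and 120, 111 and 112 TPM in replicates 1, 3 and 4. With 4 libraries, of which 1 stands apart, this likeness mainly repeats the difference of replicate 2.

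Genes on the strand opposite the receptors were looked at because the counting used strand, per the file headers. The antisense gene Gm17173 runs over the whole of Ptger2, from base 44972268 to 45006900 of chromosome 14, and shares no exon base with it. It had 6.03 TPM in replicate 2 and 22.6, 24.5 and 24.5 TPM in replicates 1, 3 and 4. The groups did not overlap, and Gm17173 was lower in replicate 2 at −1.92 ± 0.13 (edgeR adjusted p = 6.36e-10), while Ptger2 itself had no call. Opposite Ptger4, Ttc33 shares 82 exon bases and stood at 54.0 ± 1.28 TPM with no call (edgeR adjusted p = 0.789). Ubac2 and Med12l also had no call.

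**Figure D3:**
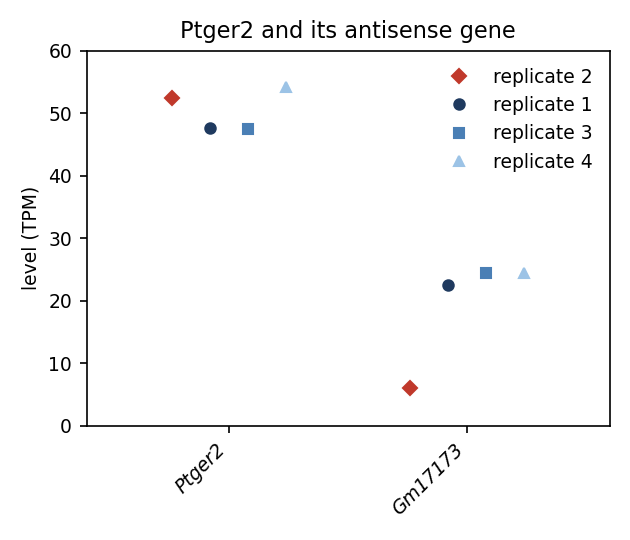
Levels in TPM (linear axis from 0) of Ptger2 and of the antisense gene Gm17173 in the 4 libraries. Replicate 2 has 52.4 TPM of Ptger2, within the range of the others, and 6.03 TPM of Gm17173, against 22.6 to 24.5 TPM in the others.

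The PGE2 pathway around the receptors was followed through 2 lists, chosen with earlier results of these data known. Of 7 other prostanoid receptor genes, Ptgir, Ptger3 and Tbxa2r lay above 1 TPM, Ptger1 below it, and Ptgdr, Ptgdr2 and Ptgfr had under 10 summed counts. Ptgir, the prostacyclin receptor, had 47.4 TPM in replicate 2 and 29.0, 31.3 and 30.4 TPM in replicates 1, 3 and 4. Ptger3, the EP3 receptor, had 10.3 TPM in replicate 2 and 8.27, 7.58 and 6.83 TPM in the same 3 libraries, and the thromboxane receptor gene Tbxa2r 7.92 TPM against 1.74, 1.19 and 1.4 TPM. All 3 were higher in replicate 2, at 0.71 ± 0.08, 0.50 ± 0.12 and 2.52 ± 0.29 (log2 ± SE, edgeR adjusted p = 1.57e-06, 0.0041 and 1.5e-06), and the fourth gene tested, Ptger1, had −2.57 ± 1.4 with no call. The value of Ptger1 rests on 41 counts in replicate 3, with 3 in replicate 2 and 7 and 5 in replicates 1 and 4. The median log2 change of these 4 genes was 0.61, against −0.01 over all genes. Many genes of all kinds were called in this library, as given above, and so small a list is not read as shifted as a set. Replicate 2 had more of these 3 transcripts, while of the EP2 and EP4 genes Ptger4 was lower and Ptger2 had no call.

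On the side of the ligand, 5 of 10 genes lay above 1 TPM. The PGE synthases Ptges3, also a chaperone partner, and Ptges2 stood at 208 ± 4.82 and 17.0 ± 0.458 TPM, and the transporter gene Abcc4 at 32.3 ± 1.42 TPM (SD, n = 4). Ptges, the inducible PGE synthase, lay below 1 TPM at 0.607 ± 0.158 TPM, and Pla2g4a, which releases arachidonic acid, had no call at 0.889 ± 0.291 TPM. Of the cyclooxygenases, Ptgs1 had at most 4 counts in a library while the inducible Ptgs2 had 40.3 TPM in replicate 2 and 28.3, 21.9 and 23.3 TPM in replicates 1, 3 and 4. Ptgs2 was higher in replicate 2 at 0.78 ± 0.12, and so was Ptgr1, a prostaglandin reductase gene, at 0.67 ± 0.11 (log2 ± SE, edgeR adjusted p = 0.000634 and 0.000142). None of the 7 tested was lower. Hpgd, the main PGE2 breakdown enzyme, had 0 counts in all 4 libraries, and the uptake carrier gene Slco2a1 had 5 counts in replicate 3 only. A count of 0 allows up to 3 counts, or 0.0795 to 0.0906 CPM (counts scaled by library size), for counting error only.

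**Figure D4:**
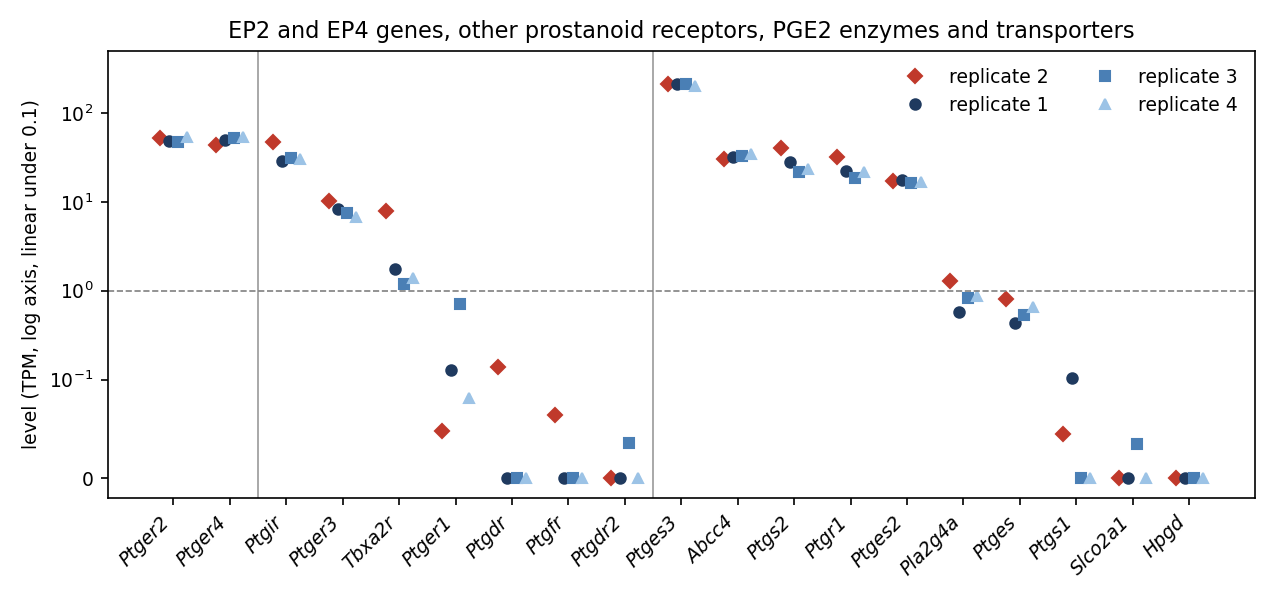
Levels in TPM of the EP2 and EP4 genes (left), the other prostanoid receptors (middle) and the genes of PGE2 synthesis, transport and breakdown (right), 1 point per library, on an axis that is logarithmic above 0.1 TPM and linear below. Replicate 2 is the highest library for Ptgir, Ptger3, Tbxa2r, Ptgs2 and Ptgr1 and the lowest for Ptger4.

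Ligand genes of other receptors were nearly absent. None of the 5 genes for making or removing oxysterol ligands of Gpr183 was called above 1 TPM: Ch25h had at most 4 counts, Cyp7b1 and Cyp7a1 had 0 counts, Cyp27a1 lay below 1 TPM at 0.185 ± 0.209 TPM, and Hsd3b7 had no call at 1.15 ± 0.227 TPM. Pcsk1n, which encodes proSAAS, had at most 3 counts. Transcripts of Gpr183, Gpr171 and Gpr83 were thus measured in cells with few or no transcripts of these ligand genes.

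Other lipid receptors gave a backdrop to the 10. Of 14 genes for lysophospholipid and sphingosine phosphate receptors 10 lay above 1 TPM, led by S1pr1 at 54.0 ± 6.76, S1pr4 at 51.9 ± 4.19 and Lpar5 at 31.6 ± 1.49 TPM. P2ry10 and P2ry10b, lysophosphatidylserine receptors like Gpr174, stood at 12.6 ± 1.94 and 14.6 ± 2.50 TPM, and Gpr34, of the same group, at 3.74 ± 1.26 TPM. Gpr174 was thus the most abundant of the 4 in every library. In replicate 2 S1pr1, which directs exit from lymph nodes, and S1pr2 were higher at 0.36 and 0.41, and P2ry10b was lower at −0.46 (edgeR adjusted p = 0.00336, 0.00786 and 0.00665), with no call for the other 10 tested. Because P2ry10 and P2ry10b are paralogs, how reads divide among the pair is uncertain. Of 14 receptor genes for other lipid mediators 5 lay above 1 TPM, led by Cysltr2 at 17.3 ± 3.34, Gpr55 at 14.1 ± 4.50 and Cysltr1 at 4.65 ± 0.822 TPM. Gpr55, a lysophosphatidylinositol receptor gene, was lower in replicate 2 at −1.09 ± 0.12 and Cysltr2, a leukotriene receptor gene, higher at 0.56 ± 0.13 (edgeR adjusted p = 7.16e-07 and 0.00374). Ffar2, named after its values were seen since its level is under 1 TPM, was also lower, at −1.83 ± 0.64 (edgeR adjusted p = 0.043).

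Genes that carry the receptor signal ranged from scarce to abundant. The counts below stand beside the 70.6% of all tested genes that lay above 1 TPM. Of 10 G protein alpha subunit genes 8 lay above 1 TPM, led by the inhibitory subunits Gnai2 at 399 ± 16.4 and Gnai3 at 277 ± 3.49 TPM and the stimulatory Gnas at 194 to 203 TPM. In replicate 2 Gnai2 was higher at 0.18 and Gna15 at 0.87, and Gna13 and Gnaq were lower at −0.77 and −0.37, while Gnas had no call at 0.07 ± 0.04 (log2, edgeR). Gna13 had 100.1 TPM in replicate 2 and 186, 174 and 175 TPM in replicates 1, 3 and 4. All 20 genes of cAMP signalling lay above 1 TPM, led by Prkar1a at 402 ± 5.80, Prkaca at 109 ± 5.23 and Pde7a at 91.5 ± 11.6 TPM. In replicate 2 the median log2 change of the list was 0.17, and some genes were called higher and others lower. Many genes of all kinds were called in this library, as given above. These calls are therefore not read as a shift of the list as a set. The higher ones were the cyclases Adcy6 at 1.30, Adcy9 at 0.82 and Adcy3 at 0.29, the kinase subunits Prkacb at 0.18 and Prkaca at 0.17, and the phosphodiesterases Pde4b at 0.50, Pde8a at 0.41, Pde4d at 0.35 and Pde3b at 0.23. The lower ones were Pde7a at −0.31, Akap13 at −0.27, Atf1 at −0.19 and Crtc2 at −0.17. Cyclases, which make cAMP, and phosphodiesterases, which destroy it, were thus both among the higher genes. The most abundant cyclase of the list, Adcy7 at 66.4 ± 3.84 TPM, was not among them, at −0.10 ± 0.05 with no call.

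Of 14 genes that end receptor signals 12 lay above 1 TPM, led by the receptor kinase genes Grk2 at 306 ± 37.5 and Grk6 at 190 ± 21.3 TPM and by Rgs16 at 185 ± 48.2 TPM. Grk2, Grk6 and Rgs10 were higher in replicate 2 at 0.39, 0.37 and 0.69, and Arrb1, Rgs16, Rgs2 and Rgs1 were lower at −1.39, −0.79, −0.67 and −0.29 (log2, edgeR). The list's median log2 change was −0.01, that of all genes. Arrb1, an arrestin gene, had 12.5 TPM in replicate 2 and 33.9, 34.1 and 34.2 TPM in replicates 1, 3 and 4, while the other arrestin gene Arrb2 had no call at 0.11 ± 0.06. Beside these values, the largest absolute log2 change among the 8 receptors with a mean of at least 10 TPM was 0.41.

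**Figure D5:**
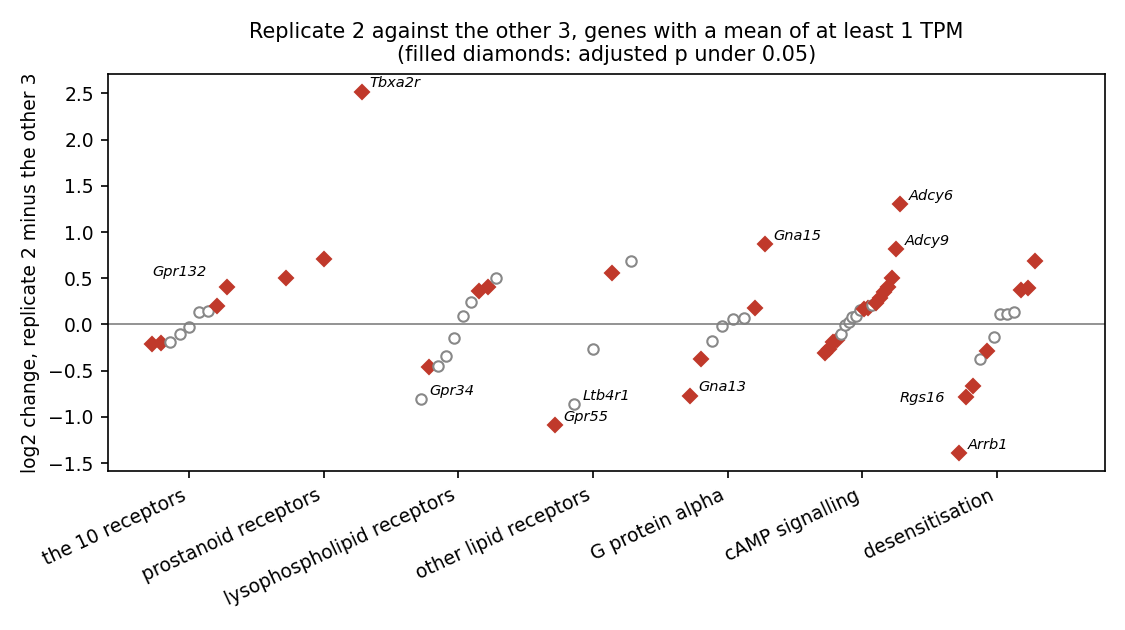
Log2 change of replicate 2 against the other 3 for the genes of each list with a mean of at least 1 TPM, as filled diamonds where the adjusted p was under 0.05 and open circles elsewhere. The 10 receptors (9 of them shown) lie between −0.21 and 0.41, while Tbxa2r reaches 2.52, Adcy6 1.30 and Arrb1 −1.39.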

How the data were processed

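RNA of mouse Th17 cells was sequenced in 4 libraries, and the labels call the assay total RNA-seq although PolyA+ stands in the name of the linked library protocol. The deposited tables hold raw fragment counts per gene, 1 table per library, which the authors made with featureCounts version 1.4.6-p4 on paired reads, per the file headers. The headers also give strand option 2 (reverse-stranded), both ends required to map, GENCODE M13 and a summed exon Length. Coordinates are on mm10, the assembly named in the labels. Read trimming is not given in the sources used here.

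Symbols came from GENCODE M21 by identifier (50376 of 50600 matched). Each count was divided by Length and scaled so that libraries have equal totals (TPM). Genes with at least 10 summed counts were fitted with edgeR 4.0.16 (R 4.3.3), quasi-likelihood with a robust prior: an intercept-only fit against 1 TPM, its F statistic formed from deviances, and each replicate against the other 3 with TMM. DESeq2 1.42.0 was an alternative. Standard errors are the size of the log2 change divided by √F. Receptor pairs were tested per library on log2(TPM + 0.1) with an exact sign-flip test. P-values were Benjamini-Hochberg adjusted, with a threshold of 0.05. The fits were tested on simulated counts, with changes larger than the receptor changes called in replicate 2. That run therefore does not bear on those calls. The receptors and lists were chosen with earlier results of these data known. All 10 receptors are named. From each list other than the cell markers come the 3 highest genes and those called in replicate 2 with a mean of at least 1 TPM. The marker lists are named only in part. Of the lists, Gpr15lg was not matched, and 1 gene is not reported here.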

Additional observations from a re-analysis of the deposited data

Results flagged for a closer look

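Among the 10 receptors and the 7 genes that overlap them, 17 genes in all, the lowest or highest library stood far from the rest in 3 cases by Dixon's test for 4 samples. Chance alone flags about 1 in 20 groups. None of the 3 is a receptor. The antisense gene Gm17173 at Ptger2 had its lowest value, 6.03 TPM, in replicate 2 (gap over range 0.893). Ubac2, the host of Gpr18 and Gpr183, had its highest value, 98.4 TPM, in replicate 4 (0.842), with 87.7 to 89.4 TPM in the others. Gm47566, an antisense gene that shares 511 exon bases with Gpr65, had 4.30 TPM from 32 counts in replicate 3 and 0 counts in each of the others.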

How the results depend on the processing

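The count of receptors above 1 TPM was 9, and of those below it 0, under each alternative run: no filter on counts, a filter of 100 summed counts, TPM computed without genes of mitochondrial and small RNA, a prior without the robust option (added after seeing the data) and each replicate left out. The same receptors were called in replicate 2 with the scaling of DESeq2, other filters, the other prior and each other replicate left out. Gpr174 was lost with DESeq2 and with library size only. With DESeq2 fewer of all genes were called as well. The share of all genes called under the other settings is not given, so these calls are not read as particular to the receptors. No receptor was called in replicates 1, 3 and 4 under the same alternatives. Ptger4 minus Ptger2 was 0.84 with CPM and no length correction (exact p = 0.125), −0.01 with a pseudocount of 1, and −0.07 to 0.07 with each replicate left out. Neighbouring pairs with 1 direction in every library numbered 7 to 8 over these settings, 8 without replicate 2 and with CPM. The pairs were kept in TPM order with CPM, and reversed pairs were counted too. By CPM, Gpr18 lay below Gpr183 and Ptger2 below Ptger4 in every library. The order of levels thus depends on the length correction. Depth limits Gpr15, with 5 to 23 counts a library, which has no value under the filter of 100 summed counts.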

Other observations

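Replicate 3 held more genes seen in no other library. With at least 10 counts in 1 library and 0 in the other 3, there were 49 genes in replicate 3, 28 of them annotated as antisense, against 1 gene in replicate 1, 9 in replicate 2 and 0 in replicate 4, none of these antisense. Antisense genes with a count numbered 935 in replicate 3 and 662, 697 and 685 in replicates 1, 2 and 4, while their share of all counts was 0.0872% in replicate 3 and 0.0767% to 0.0805% in the others. Among the genes that overlap the receptors, the antisense gene Gm47566 opposite Gpr65 had 32 counts in replicate 3 and 0 in the others. The processed pseudogene Gm15937, which shares 1015 exon bases with Ptger4 on the other strand, had 10 counts in replicate 3 and 1, 0 and 5 counts in replicates 1, 2 and 4. The counts of Gpr65 and Ptger4 themselves in replicate 3, 7444 and 3659, lay within the range of the other libraries.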
